A study of Mus musculus with 6 samples.

Results

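Fatty acid oxidation and ketone body metabolism in the mouse stomach were followed through 31 genes, picked by gene symbol for their place in the pathway, out of 23550 gene symbols measured by RNA sequencing. The series asked how Riclin, a succinoglycan polysaccharide made by a soil bacterium, acts on the mucosal defence of the stomach. Mice of the Riclin group received Riclin at 20 mg per kg by gavage and mice of the control group received saline by gavage, each for 14 days, with 20 mice in that experiment in all. 3 stomach libraries came from Riclin mice and carry the replicate numbers 2, 3 and 4, and 3 came from saline mice and carry the numbers 1, 2 and 4. The labels of these libraries name no ethanol treatment, which the study used in another experiment, and give no strain, age, sex or genotype for the mice. They do not say that each library is a separate animal, so a p-value here measures the spread between these libraries only.

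Mitochondria burn fatty acids in a fixed order. Carnitine carries the acyl chain across the inner membrane, 4 enzyme steps then shorten it again and again, and the electrons reach the respiratory chain through the electron transfer flavoprotein. Liver turns the acetyl-CoA that results into ketone bodies, and other tissues take them up and use the enzyme OXCT1 to turn them back into acetyl-CoA. The acid-secreting parietal cell of the stomach is among the cells most densely packed with mitochondria, and the nuclear receptor PPAR alpha with its coactivator PGC-1 alpha switches on many of the genes.

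Libraries held between 30884067 and 40050267 reads, as implied by the values. Stomach identity was plain in every library. The summed FPKM (fragments normalised to gene length and to library size) of 18 parietal cell markers lay between 6009 and 8291 in Riclin and between 4955 and 6996 in saline, and the pepsinogen gene Pgc lay between 58620 and 79740 FPKM in Riclin and between 32610 and 62150 FPKM in saline. Riclin replicate 3 stood apart. Its 24 pancreatic acinar markers summed to 411 FPKM, with 7 of the 24 at 0, among them the carboxypeptidase gene Cpa1, whereas the sum was 100600 and 94660 FPKM in Riclin replicates 2 and 4, and 36290, 150300 and 140900 FPKM in saline replicates 1, 2 and 4. FPKM values are relative to the library total. Taking out the reads of these 24 markers alone multiplies other FPKM values by 1.12, 1.0005 and 1.11 in Riclin replicates 2, 3 and 4. In saline replicates 1, 2 and 4 the factors are 1.04, 1.19 and 1.18. The counts and the genes that rest most on Riclin replicate 3 are therefore also given without it. Forestomach squamous markers were higher in the mean of Riclin for all 12 genes tested (summed FPKM 803 to 1106 in Riclin and 178 to 1021 in saline) and chief cell markers for 5 of 6, and their part in the results below was not tested. The lower chief cell marker was Pnliprp1, at 64.1 FPKM in Riclin replicate 3 and 1579 to 4356 FPKM elsewhere. Like the acinar sum it was lowest in Riclin replicate 3, and its reads were left in.

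No gene of the pathway passed the test between Riclin and saline. 30 of the 31 genes passed a minimum of 1 FPKM in at least 3 of the 6 libraries and were tested with limma on log2(FPKM + 1), Cpt1b being the exception. None had an adjusted p under 0.05. Among all 11738 genes tested none did either, which makes the share called 0%, and the smallest adjusted p was 0.778 in the pathway and 0.156 among all genes. With an unadjusted limma p under 0.05 stood 2 genes of the pathway, Ppara and Ppargc1a (6.67%), each higher in Riclin. Among all genes 693 did (5.9%, with 4.07% higher in Riclin and 1.83% lower). Ppargc1a passed the minimum through its Riclin libraries alone, as did 0.145% of all genes tested, so its place in such counts is no support. A count model on the recovered reads (voom) also called 0 genes, with 743 at an unadjusted p under 0.05, and limma with a robust prior called 2 genes, neither in the pathway.

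Fold changes were small. 21 of the 30 genes were higher in the mean of Riclin and 9 were lower, which is 70% higher against 61.3% of all genes tested (38.7% of all genes were lower), and the median log2 fold change was 0.08 against 0.04 over all genes. The split became 18 to 12 with median-of-ratios scaling, 20 to 10 with upper-quartile scaling, 16 to 14 once acinar reads were removed, and 14 to 16 without Riclin replicate 3. Non-overlapping groups were found for 3 genes, Ppara, Ppargc1a and Acsl1, each higher in Riclin. This is 10% of the genes tested against 11.2% among all genes (8.14% higher in Riclin and 3.02% lower). For Ppargc1a the gap was fixed by the filter, which it passed through Riclin alone, and without it Ppara and Acsl1 remain. The largest difference of any gene of the pathway, in Ppargc1a, was a log2 fold change of 0.33. On this scale 8.69% of all genes tested had a larger one. The pseudocount of 1 compresses differences near 1 FPKM, and with a pseudocount of 0.1 the log2 fold change was 0.64 for Ppargc1a and 0.46 for Ppara, and with voom on reads 0.71 and 0.52. The median SE of the fold change was 0.15. All 30 of the 95% confidence intervals stayed within a 2-fold change of FPKM + 1 either way, which for Ppara and Ppargc1a is no limit on the fold of the FPKM itself, from -0.62 at the lowest bound to 0.72 at the highest, and 24 stayed within 1.5-fold. Counting error was small beside this spread for most genes, since 25 of them had at least 1000 reads in every library. Ppara and Ppargc1a were not among these, with 338 to 608 and 316 to 736 reads per library.

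**Figure D1:**
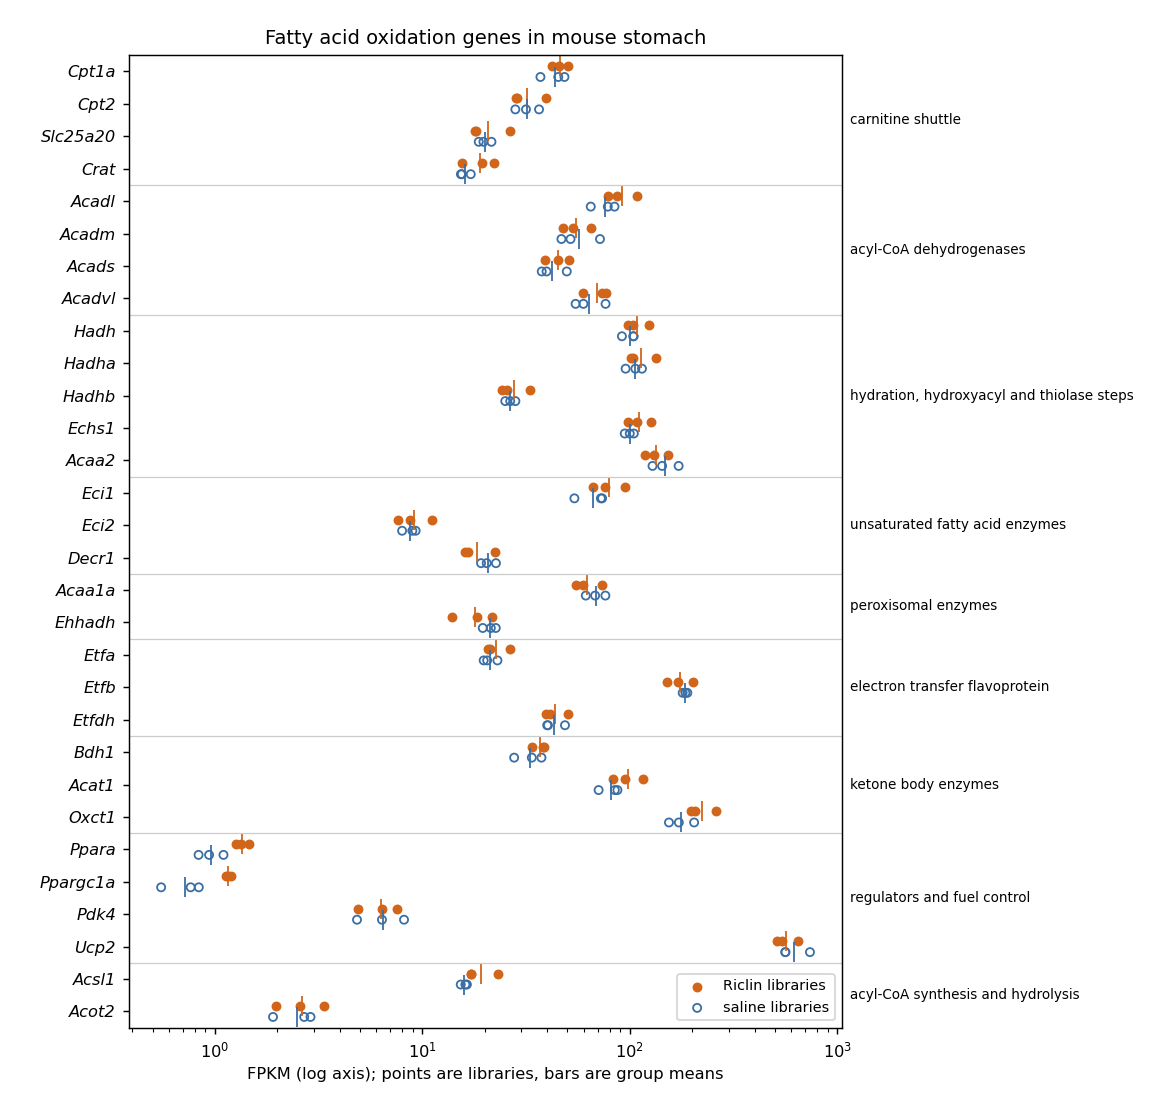
FPKM of 30 fatty acid oxidation genes (log axis) in each Riclin library (filled points, upper line of each gene) and each saline library (open points, lower line), with a bar at each group mean and the genes grouped by role. Riclin and saline points interleave for 27 genes, and stand apart for Ppara, Ppargc1a and Acsl1. The gap in Ppargc1a was fixed by the filter.

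**Figure D2:**
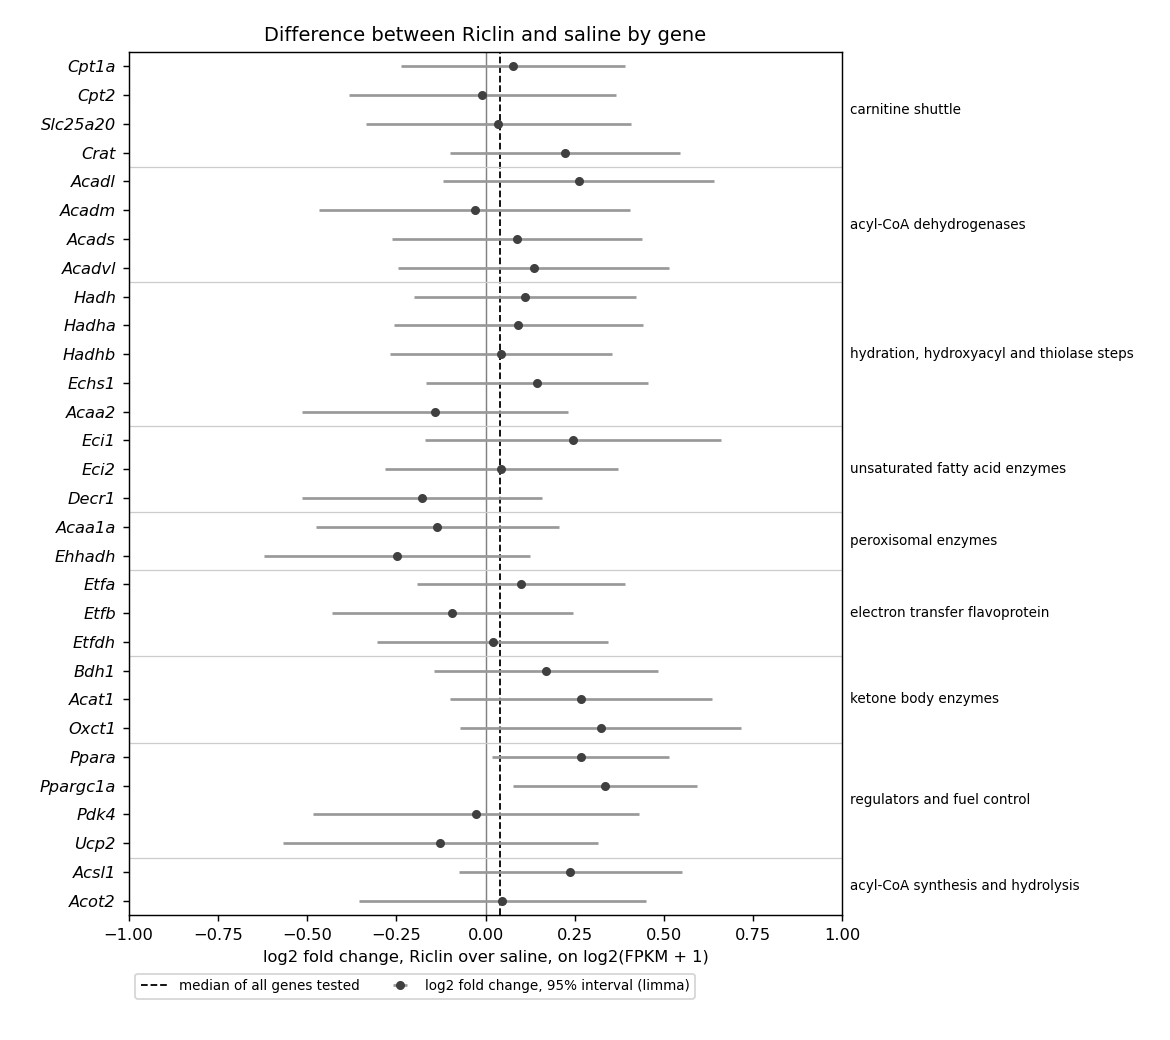
Log2 fold change of Riclin over saline on log2(FPKM + 1) for the same 30 genes, with the 95% confidence interval from limma. The dashed line is the median of all 11738 genes tested, 0.04. The intervals of 28 genes include 0, and those of Ppara and Ppargc1a do not before adjustment.

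Values below are listed in the order Riclin replicates 2, 3 and 4, then saline replicates 1, 2 and 4. The carnitine shuttle opens with carnitine palmitoyltransferase 1, the step that controls entry of long chains into mitochondria and that malonyl-CoA inhibits. Its liver form Cpt1a (chr19:3322334-3385733, plus strand, GRCm38) had 45.5, 50.3 and 42.0 FPKM in Riclin and 48.4, 37.1 and 45.2 FPKM in saline. The groups overlapped, and the log2 fold change was 0.08 (SE 0.14, limma adjusted p = 0.943). Its muscle form Cpt1b had almost no assigned reads. All Riclin libraries and saline replicates 1 and 2 were listed at 0, and saline replicate 4 held 1 read, or 0.0112 FPKM. Cpt1b shares 2744 exon bases with Gm44502 on its own strand, and reads that fit both genes may have been dropped in counting, so these values do not show whether Cpt1b was expressed. The window around the RefSeq start of Cpt1a (GRCm38.p6, chr19:3323051-3323350, plus strand, 250 bases before the start and 50 after) is shown because it alone of the printed windows holds the core of a nuclear receptor site.

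Cpt1a: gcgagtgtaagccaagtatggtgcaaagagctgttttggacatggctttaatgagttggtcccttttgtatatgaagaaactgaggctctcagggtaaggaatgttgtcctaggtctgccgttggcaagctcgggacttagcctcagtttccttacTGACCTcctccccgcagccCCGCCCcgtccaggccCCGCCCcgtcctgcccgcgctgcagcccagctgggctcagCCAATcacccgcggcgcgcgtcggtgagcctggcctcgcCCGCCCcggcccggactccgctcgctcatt
The first run of capitals is AGGTCA read on the other strand, 94 bases before the start, the CCAAT box lies 19 bases before it, and the remaining runs are GGGCGG read on the other strand.

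Cpt2, which hands the chain back to CoA inside the mitochondrion, had 28.7, 39.3 and 28.2 FPKM in Riclin and 36.5, 28.1 and 31.6 FPKM in saline. Slc25a20, the carrier that swaps acylcarnitine for carnitine, had 17.9, 26.4 and 18.1 FPKM in Riclin and 19.7, 18.7 and 21.5 FPKM in saline. In each of these genes Riclin replicate 3 was above every other library and the other Riclin libraries lay at the bottom of the saline range or below it. Their log2 fold changes were -0.01 and 0.04, and the second turned to -0.01 with median-of-ratios scaling. Crat, which moves short acyl groups between CoA and carnitine, had 15.5, 22.1 and 19.4 FPKM in Riclin and 15.3, 17.1 and 15.5 FPKM in saline. Riclin replicates 3 and 4 lay above all saline libraries and Riclin replicate 2 lay among them (log2 fold change 0.22, SE 0.14, limma unadjusted p = 0.150, adjusted p = 0.846). Its exons share 59 bases with Dolpp1 and 411 with the antisense gene Gm16323, and no source used here says whether strand was used in counting.

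The acyl-CoA dehydrogenases take the first step of each round and are told apart by the chain length they prefer. 3 of the 4 were higher in the mean of Riclin, with a median log2 fold change of 0.11, and none had groups that stood apart. Acadl, the long-chain enzyme, had 78.3, 109 and 87.1 FPKM in Riclin and 84.4, 64.8 and 78.4 FPKM in saline, where Riclin replicate 3 was highest and saline replicate 2 lowest (log2 fold change 0.26, SE 0.16, limma adjusted p = 0.847). Acadm, the medium-chain enzyme, had 47.6, 64.7 and 53.1 FPKM in Riclin and 71.8, 46.8 and 51.8 FPKM in saline, and here saline replicate 1 was highest. Acadvl, the very-long-chain enzyme on the inner membrane, ran from 59.2 to 76.6 FPKM in Riclin and from 54.8 to 76.4 FPKM in saline, and Acads, the short-chain enzyme, from 38.9 to 51.1 FPKM in Riclin and from 37.6 to 49.7 FPKM in saline. Acadvl shares 1151 exon bases with Dvl2 on the opposite strand.

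Ratios of genes within a library do not depend on how the library is scaled, and 6 of 7 planned ratios could be computed, the ratio of Cpt1a to Cpt1b having no denominator. Acadl to Acadm was the only ratio of the 6 with groups that stood apart. It was 1.64, 1.68 and 1.64 in Riclin and 1.18, 1.39 and 1.51 in saline. All Riclin values were close together and above all saline values, and the difference of 0.29 in mean log2 ratio gave p = 0.1 in an exact permutation test (two-sided), which no 3 against 3 design can go under, or 0.6 after Benjamini-Hochberg adjustment over the 6 ratios. Without saline replicate 1 the difference was 0.19.

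The next steps of the round hydrate the chain, oxidise it again and cleave it. The trifunctional protein joins these activities for long chains, with the alpha subunit from Hadha and the beta subunit, the thiolase, from Hadhb. Hadha had 102, 134 and 104 FPKM in Riclin and 115, 95.5 and 106 FPKM in saline. Hadhb had 24.3, 33.0 and 25.6 FPKM in Riclin and 28.1, 25.1 and 26.5 FPKM in saline. Their ratio varied little from library to library. It was 4.19, 4.06 and 4.05 in Riclin and 4.08, 3.80 and 4.01 in saline, a difference of 0.05 in mean log2 ratio (exact permutation p = 0.3, adjusted 0.6). A ratio of about 4 depends on the gene lengths used. The deposited FPKM values rest on 5922 bases for Hadhb and 2716 for Hadha, while their principal transcripts in GENCODE M21 measure 2048 and 4017 bases. Counted per base of the principal transcript, the ratio lay between 0.889 and 0.979 over the 6 libraries.

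Hadha and Hadhb lie head to head on chromosome 5, Hadha on the minus strand (chr5:30118304-30155162) and Hadhb on the plus strand (chr5:30155248-30184593). Their RefSeq starts are 273 bases apart and the 300-base windows share 228 bases, so the window of Hadhb (GRCm38.p6, chr5:30155003-30155302, plus strand) is shown for the pair.

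Hadhb: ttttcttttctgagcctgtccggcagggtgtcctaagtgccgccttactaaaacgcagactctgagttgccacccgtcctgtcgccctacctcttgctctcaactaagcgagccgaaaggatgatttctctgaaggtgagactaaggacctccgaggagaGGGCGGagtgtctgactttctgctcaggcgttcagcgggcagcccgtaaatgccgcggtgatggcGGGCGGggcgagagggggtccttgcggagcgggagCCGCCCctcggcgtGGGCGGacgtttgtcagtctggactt
Capitals mark GGGCGG, which is found 3 times on this strand, 90 and 25 bases before the start and at base 25 after it, and once on the other strand as CCGCCC, at base 11.

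Echs1, the short-chain hydratase, had 97.8, 126 and 108 FPKM in Riclin and 104.6, 99.99 and 94.6 FPKM in saline, and Hadh, the hydroxyacyl-CoA dehydrogenase for shorter chains, 98.3, 123 and 103 FPKM in Riclin and 104, 104 and 91.7 FPKM in saline. In both genes Riclin replicate 3 was highest and the groups overlapped, with log2 fold changes of 0.14 and 0.11. Acaa2, the thiolase that ends the round for shorter chains, was lower in the mean of Riclin. It had 131, 153 and 118 FPKM in Riclin and 172, 143 and 129 FPKM in saline, with saline replicate 1 highest and Riclin replicate 4 lowest (log2 fold change -0.14, SE 0.16, limma adjusted p = 0.918).

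Unsaturated fatty acids need helper enzymes that move or remove double bonds. Eci1, the main mitochondrial isomerase, had 66.7, 95.1 and 76.2 FPKM in Riclin and 73.5, 72.5 and 54.1 FPKM in saline. Riclin replicate 3 was highest, saline replicate 4 was lowest and the other libraries were mixed (log2 fold change 0.24, SE 0.18). Eci2, an isomerase found in peroxisomes and mitochondria, was lower, at 7.59 to 11.1 FPKM in Riclin and 7.98 to 9.28 FPKM in saline, and its log2 fold change of 0.04 turned to -0.02 once acinar reads were removed. Decr1, the dienoyl-CoA reductase, had 16.1, 22.5 and 16.6 FPKM in Riclin and 22.6, 20.4 and 19.2 FPKM in saline, with Riclin replicates 2 and 4 below every saline library and Riclin replicate 3 among them (log2 fold change -0.18, SE 0.14, limma adjusted p = 0.884).

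Peroxisomes shorten very long and branched chains by a parallel route. Each of the 2 peroxisomal genes was lower in the mean of Riclin. Ehhadh, the bifunctional hydratase and dehydrogenase, had 18.3, 21.6 and 13.8 FPKM in Riclin and 22.6, 19.6 and 21.4 FPKM in saline. Riclin replicates 2 and 4 lay below all saline libraries (log2 fold change -0.25, SE 0.16, limma unadjusted p = 0.163, adjusted p = 0.851). Acaa1a, the peroxisomal thiolase, had 59.2, 73.2 and 55.2 FPKM in Riclin and 76.3, 61.4 and 68.1 FPKM in saline, a log2 fold change of -0.14 (SE 0.15), and its reads are uncertain because Acaa1b is a near-identical copy and because 290 exon bases are shared with Myd88. Acaa2, Decr1, Acaa1a and Ehhadh were the only 4 genes of the pathway that were lower in Riclin under each of the 17 alternative settings tried. Leaving out 1 library took Ehhadh from -0.39 without Riclin replicate 3 to -0.0827 without Riclin replicate 4, Decr1 from -0.32 without Riclin replicate 3 to -0.0948 without Riclin replicate 2, Acaa1a from -0.25 without Riclin replicate 3 to -0.0523 without Riclin replicate 4, and Acaa2 from -0.24 without Riclin replicate 3 to -0.0286 without saline replicate 1. The ratio of Ehhadh to Acaa2 differed by -0.12 in mean log2 (exact permutation p = 0.6, adjusted 0.72).

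The electron transfer flavoprotein is a dimer of the products of Etfa and Etfb, and its electrons pass to ubiquinone through the product of Etfdh. Etfb had 151, 201 and 171 FPKM in Riclin and 189.5, 185 and 179.9 FPKM in saline, and Etfa had 21.2, 26.3 and 20.7 FPKM in Riclin and 23.0, 20.5 and 19.8 FPKM in saline. Riclin libraries were more spread than saline libraries in both genes, and the log2 fold changes were -0.09 and 0.10. Etfa to Etfb was 0.141, 0.131 and 0.121 in Riclin and 0.121, 0.111 and 0.110 in saline, and the difference of 0.20 in mean log2 ratio gave an exact permutation p of 0.2 (adjusted 0.6). Here too the length sets the level, since the FPKM values of Etfa rest on 9685 bases against 1392 bases of its principal transcript. Per base of the principal transcript Etfa reached 0.755 to 0.966 of Etfb. All annotated exons of Etfa together measure 1835 bases, far fewer than 9685, so this ratio is uncertain as well. Etfb shares 617 exon bases with Gm45233 on its own strand, so those reads cannot be assigned to either gene from these values. Etfdh ran from 39.3 to 50.6 FPKM in Riclin and from 40.0 to 48.7 FPKM in saline, and its log2 fold change of 0.02 turned to -0.03 with median-of-ratios scaling and -0.02 with upper-quartile scaling.

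**Figure D3:**
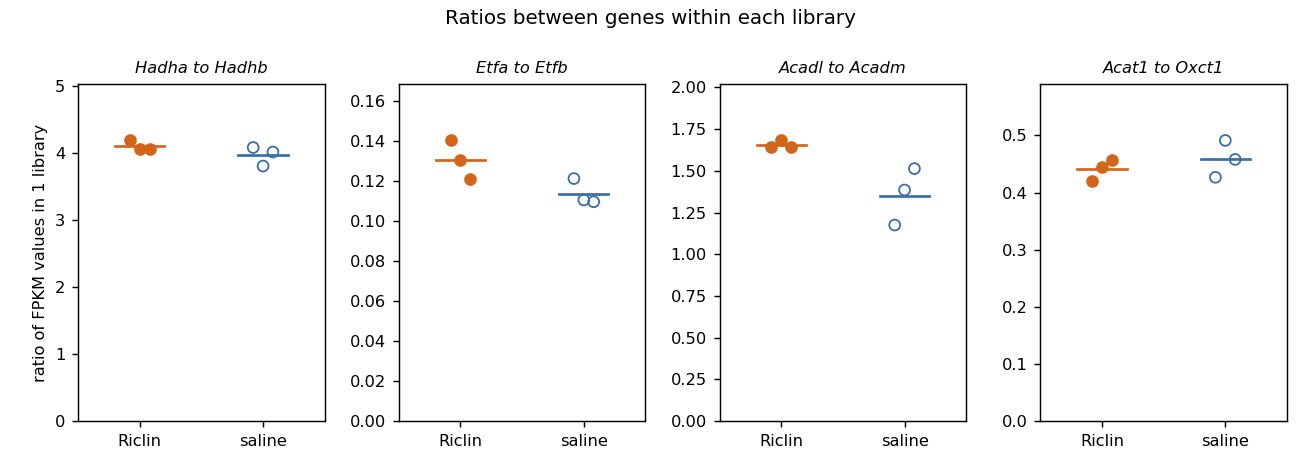
Ratio of FPKM values of gene pairs within each library, in Riclin (filled, left of each panel) and saline (open, right). Lines stand at the mean of the 3 log2 ratios, put back on the ratio scale. Acadl to Acadm stands apart between the groups, at 1.64 to 1.68 in Riclin and 1.18 to 1.51 in saline. The other panels overlap.

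The ketone body genes had the highest median log2 fold change of the 9 roles, 0.27 over 3 genes, all higher in the mean of Riclin under every setting tried and none past the test. Oxct1 (chr15:4026383-4155344, plus strand, GRCm38), which encodes the enzyme that lets a cell burn ketone bodies, had 198, 261 and 207 FPKM in Riclin and 204, 172 and 155 FPKM in saline. Riclin replicate 2 lay below saline replicate 1, and the other Riclin libraries lay above all saline libraries, Riclin replicate 3 by the widest margin. Means were 222 ± 33.8 FPKM in Riclin and 177 ± 25.3 FPKM in saline (SD, n = 3 each). The log2 fold change was 0.32 (SE 0.17, 95% interval -0.07 to 0.72, limma unadjusted p = 0.0944, adjusted p = 0.838), and it was 0.20 without Riclin replicate 3 and 0.43 without saline replicate 1. With acinar reads removed and the libraries rescaled, Oxct1 groups stood apart, at 222, 261 and 231 in Riclin and 213, 205 and 182 in saline, with a log2 fold change of 0.25 and an adjusted limma p of 0.614.

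Acat1, the mitochondrial thiolase that cleaves acetoacetyl-CoA, the product of OXCT1, and also serves isoleucine breakdown, had 83.2, 116 and 94.8 FPKM in Riclin and 87.2, 84.7 and 70.8 FPKM in saline. Again Riclin replicates 3 and 4 exceeded all saline libraries (log2 fold change 0.27, SE 0.16, limma unadjusted p = 0.132, adjusted p = 0.843). Bdh1, which interconverts the ketone bodies hydroxybutyrate and acetoacetate, had 33.9, 38.3 and 38.6 FPKM in Riclin and 37.5, 33.7 and 27.7 FPKM in saline (log2 fold change 0.17, SE 0.14). The ratio of Acat1 to Oxct1 ran from 0.421 to 0.457 in Riclin and from 0.427 to 0.491 in saline, with overlapping groups (exact permutation p = 0.4, adjusted 0.6). Parietal cell markers also had higher means. Of them 15 of the 17 tested were higher in the mean of Riclin, with a median log2 fold change of 0.28, and the proton pump gene Atp4a had 1644, 2245 and 2184 FPKM in Riclin and 1740, 1516 and 1273 FPKM in saline. Surface mucous cell markers had lower means for 10 of the 11 tested (median -0.15), with sums of 63950 to 92410 FPKM in Riclin and 66950 to 114500 FPKM in saline. In bulk tissue fewer cells of a type and less RNA per cell cannot be told apart, and the part of cell composition in the ketone body values was not tested.

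Of the regulators, the receptor and its coactivator had groups that stood apart, at low levels. Ppargc1a, the coactivator PGC-1 alpha that drives mitochondrial gene expression (chr5:51454250-51567726, minus strand, GRCm38), had 1.19, 1.15 and 1.13 FPKM in Riclin and 0.836, 0.550 and 0.764 FPKM in saline. The Riclin libraries were nearly alike and all above 1 FPKM, and the saline libraries were all below it. Means were 1.16 ± 0.0299 FPKM in Riclin and 0.716 ± 0.149 FPKM in saline (SD, n = 3 each), a fold of 1.62, and on the log2(FPKM + 1) scale, which understates changes of low genes, the fold change was 0.33 (SE 0.11, 95% interval 0.08 to 0.59, limma unadjusted p = 0.0174, adjusted p = 0.778). It rested on 316 to 736 reads per library. Since only its Riclin libraries reached 1 FPKM, Ppargc1a entered the test through Riclin alone, as 17 of all genes tested did (0.145%), and the gap between its groups at 1 FPKM was fixed by that filter. Under filters that set no minimum per library, the first of them chosen after seeing the data, the direction stayed. The unadjusted limma p was 0.0150 and the adjusted p 0.786 for a mean of at least 0.5 FPKM. With no filter they were 0.0111 and 0.860. These values come from the same libraries in which Ppargc1a stood out.

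Ppara encodes the nuclear receptor that senses fatty acids and switches on their oxidation (chr15:85734983-85802819, plus strand, GRCm38). It had 1.34, 1.46 and 1.26 FPKM in Riclin and 0.833, 0.937 and 1.10 FPKM in saline, without overlap and with saline replicate 4 nearest to Riclin. The 3 Riclin libraries and 1 saline library reached 1 FPKM. Means were 1.35 ± 0.0980 FPKM in Riclin and 0.956 ± 0.134 FPKM in saline (SD, n = 3 each), a fold of 1.41, with a log2 fold change of 0.27 (SE 0.11, limma unadjusted p = 0.0378, adjusted p = 0.806). Over the alternatives tried its adjusted p ran from 0.625 to 0.964 and that of Ppargc1a from 0.538 to 0.964. Both genes kept their direction without Riclin replicate 3, at 0.24 for Ppara and 0.34 for Ppargc1a. Esrrg, a nuclear receptor of parietal cells and a partner of PGC-1 alpha, was named after its values were seen. It had 16.8, 18.3 and 12.9 FPKM in Riclin and 13, 11.1 and 11.4 FPKM in saline. Its log2 fold change was 0.39 (SE 0.14, limma adjusted p = 0.791), and Riclin replicate 4 lay just below saline replicate 1. Esrrg is on the list of parietal cell markers, whose median log2 fold change was 0.28. The nuclear receptors Esrra, Rxra, Ppard and Pparg had log2 fold changes of 0.09, 0.08, 0.0048 and -0.24.

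The start regions of these regulators are shown because they are the pair with an unadjusted p under 0.05. Ppara lies in a window rich in G and C (GRCm38.p6, chr15:85735526-85735825, plus strand) and Ppargc1a in one that is not (chr5:51567676-51567975, minus strand, printed 5′ to 3′ on the gene's strand).

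Ppara: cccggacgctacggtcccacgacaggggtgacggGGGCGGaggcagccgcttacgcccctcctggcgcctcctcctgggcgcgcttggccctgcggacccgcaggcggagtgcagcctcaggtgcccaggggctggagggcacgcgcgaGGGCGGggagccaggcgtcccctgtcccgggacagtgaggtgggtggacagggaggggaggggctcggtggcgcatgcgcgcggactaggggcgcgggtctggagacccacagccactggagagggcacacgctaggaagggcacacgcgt
Ppargc1a: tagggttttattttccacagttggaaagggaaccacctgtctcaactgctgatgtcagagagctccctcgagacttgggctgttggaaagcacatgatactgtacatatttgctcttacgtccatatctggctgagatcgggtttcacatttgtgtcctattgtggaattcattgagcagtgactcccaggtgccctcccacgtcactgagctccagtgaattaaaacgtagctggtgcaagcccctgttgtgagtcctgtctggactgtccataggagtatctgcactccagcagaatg
Capitals mark GGGCGG, found in the Ppara window 216 and 101 bases before the start. None of the 7 motifs searched was found in the Ppargc1a window.

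Pdk4, the kinase that inhibits pyruvate dehydrogenase when fat is burned and a classic PPAR alpha target, had groups that overlapped. It had 6.41, 7.59 and 4.88 FPKM in Riclin and 6.39, 4.84 and 8.16 FPKM in saline, so its lowest and its highest value were both in saline (log2 fold change -0.03, SE 0.20). Ucp2, an inner-membrane carrier related to the uncoupling protein of brown fat, was the most abundant of the 31 genes per length. It had 510.2, 647 and 544 FPKM in Riclin and 739, 562 and 563 FPKM in saline, with saline replicate 1 far above the rest (log2 fold change -0.13, SE 0.19, limma adjusted p = 0.933). Without saline replicate 1 its log2 fold change was 0.0045.

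Acsl1 activates long-chain fatty acids by joining them to CoA (chr8:46471037-46536051, plus strand, GRCm38). It had 17.2, 23.2 and 17.1 FPKM in Riclin and 16.1, 15.3 and 16.4 FPKM in saline. Riclin libraries did not overlap saline libraries, but Riclin replicates 2 and 4 exceeded the highest saline library by less than 1 FPKM, and Riclin replicate 3 alone lay well above it. The log2 fold change was 0.24 (SE 0.13, limma unadjusted p = 0.117, adjusted p = 0.843), and 0.10 without Riclin replicate 3. Acot2, which cuts CoA off again inside the mitochondrion, had 1.96, 3.36 and 2.56 FPKM in Riclin and 2.89, 1.91 and 2.69 FPKM in saline on 151 to 296 reads a library, and its groups overlapped. Acot1 is a near-identical neighbour of Acot2, so its reads are uncertain.

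Levels per length spanned the pathway widely. Over the 6 libraries 7 genes averaged more than 100 FPKM, 18 lay between 10 and 100 FPKM and 6 below 10 FPKM. The order began with Ucp2 at 594 ± 84.2 FPKM (SD, n = 6 libraries), Oxct1 at 199.5 ± 36.3 FPKM and Etfb at 179.7 ± 17.3 FPKM, and ended with Acot2, Ppara, Ppargc1a and Cpt1b. Oxct1 and Etfb did not differ beyond their spread, and 24 of the 30 neighbouring pairs in this order overlapped in range. Within a gene tested the 6 libraries varied by a coefficient of variation of 9.63% to 27.8%, with a median of 14.6% against 12.95% over all genes tested. Of the 30 genes tested Etfb varied least and Ppargc1a most.

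The order depended on gene length for a few genes. 21 of the 31 genes had a length behind their FPKM values within 0.8 to 1.25 of the principal transcript, and 4, Etfa, Ppara, Hadhb and Ppargc1a, had more than 2 times its length. When reads were divided by the principal transcript, a choice made after seeing the data, 4 genes moved by at least 5 ranks: Etfa up by 16 to the fourth place and Hadhb up by 10, Acadl down by 8 and Hadha down by 6. Ucp2, Oxct1 and Etfb kept the first 3 places, at 256, 197 and 182 FPKM by that length. The lengths behind the FPKM values are the shortest that give whole reads in every library, and a whole multiple would too. The places of Acadl, Hadha and Ucp2 below the line of equal length are therefore uncertain. For Etfa, Ppara and Ppargc1a these lengths (9685, 10433 and 15946 bases) far exceed all annotated exons together (1835, 3836 and 6592 bases). Their places by the principal transcript, such as the fourth place of Etfa, are therefore uncertain too. Differences between Riclin and saline do not depend on the length, except through the pseudocount and the filter. Of the 31 genes 13 share exon bases with another gene, among them Oxct1 with BC037032 (467 bases), Acsl1 with Gm45244 (1039 bases) and Ucp2 with Dnajb13 (305 bases), and no source used here says how such reads were split in counting.

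**Figure D4:**
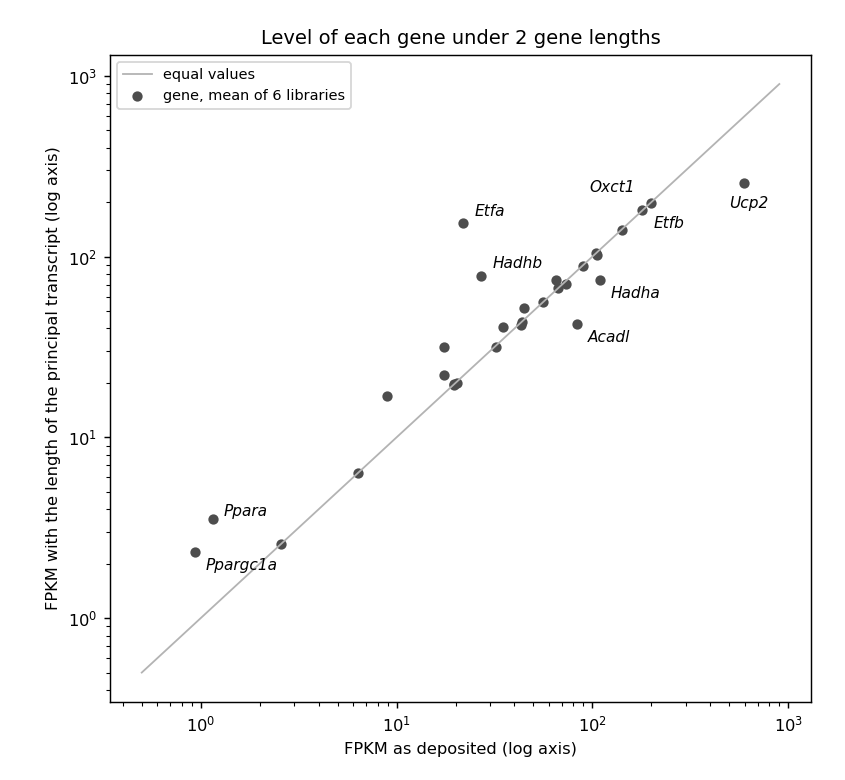
Mean of 6 libraries for each of 30 genes, with the length behind the deposited FPKM values (x, log axis) and with the length of the principal transcript (y, log axis). The line marks equal values. Etfa at 21.9 and 153, Ppara at 1.15 and 3.53 and Hadhb at 27.1 and 78.3 lie farthest above it, and Acadl at 83.6 and 42.5 and Ucp2 at 594 and 256 farthest below.

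Single libraries stood out across the pathway. Riclin replicate 3 was the highest of all 6 libraries for 20 of the 30 genes (66.7%), against 35.6% of all genes tested, and the lowest for none of the 30. Leaving it out brought the log2 fold changes of Acat1, Acadl, Crat and Eci1 to 0.14, 0.13, 0.11 and 0.11. Saline replicate 1 was the highest for 6 (20%), against 23.6% of all genes. Within Riclin, replicate 3 led for 27 genes (60.8% of all genes tested), and within saline, replicate 1 led for 25 (55.1% of all genes tested). These are the libraries with the fewest acinar transcripts in their groups. They also had the highest sums of 12 hepatocyte markers in their groups. The sums were 1046, 1719 and 1522 FPKM in Riclin and 1380, 1158 and 899 FPKM in saline. Most of each sum was Apoa1 alone, at 980, 1447 and 1365 FPKM in Riclin and 1071, 1078 and 821 FPKM in saline. The albumin gene Alb had 100.8 FPKM in Riclin replicate 3, 142.5 FPKM in saline replicate 1 and 2.58 to 53.4 FPKM elsewhere. Within saline, Apoa1 was instead highest in replicate 2 and Cps1 in replicate 4. The part of liver cells in the pathway values was not tested. The median departure from the gene mean in Riclin replicate 3 was 0.24 on the log2 scale for the pathway, against 0.10 for all genes tested. Of 22 nuclear genes of oxidative phosphorylation, 20 were likewise highest in Riclin replicate 3.

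The reads of the acinar markers were then taken out and each library was rescaled to what remained, an alternative chosen after seeing the data. Riclin replicate 3 was then the highest library for 13 of the 30 genes, against 10.2% of all genes. The rescaled groups stood apart for 6 genes of the pathway. Oxct1, Ppara and Ppargc1a were higher in Riclin (5.39% of all genes were), and Decr1, Ehhadh and Ucp2 were lower (8.47% of all genes were). Ppargc1a is no support in this count, since it entered the test through its Riclin libraries alone, and without it Oxct1 and Ppara remain higher. Rescaled Ehhadh was 20.6, 21.6 and 15.4 in Riclin and 23.5, 23.2 and 25.2 in saline, and rescaled Ucp2 was 572, 647 and 605 in Riclin and 769, 668 and 663 in saline. Rescaled Decr1 was 18.0, 22.5 and 18.4 in Riclin and 23.5, 24.3 and 22.6 in saline, with Riclin replicate 3 just under the lowest saline library. None of the pathway's genes passed the adjusted threshold after rescaling. Without Riclin replicate 3 and saline replicate 1, also an alternative chosen after seeing the data, 19 of the 30 genes were higher in Riclin, with a median log2 fold change of 0.05.

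**Figure D5:**
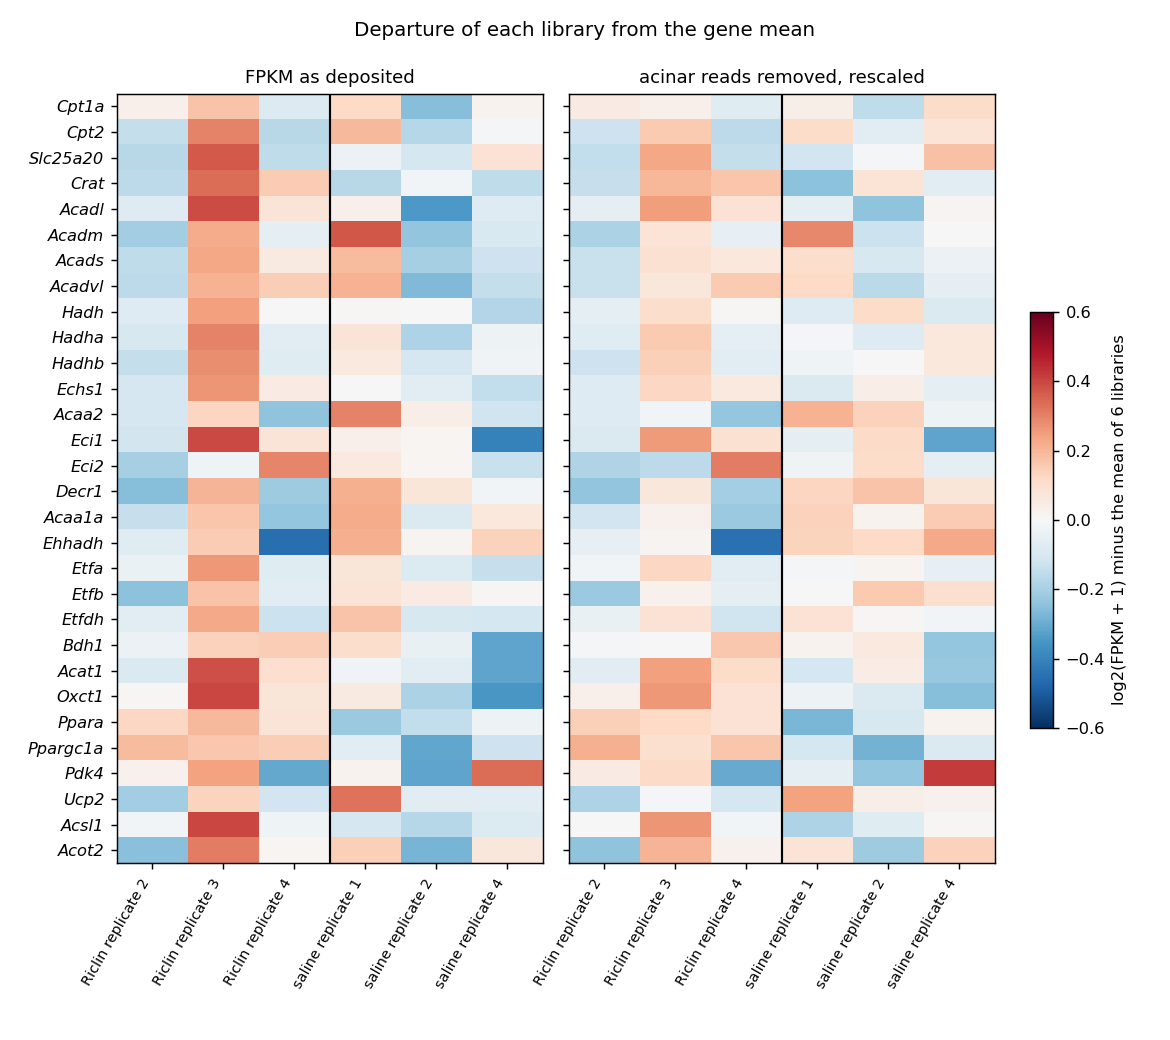
Departure of each library from the mean of 6 libraries on log2(FPKM + 1), by gene, with FPKM as deposited (left) and after removal of acinar reads and rescaling (right). Riclin libraries stand left of the vertical line and saline libraries right of it. Riclin replicate 3 is the darkest red column on the left, highest in 20 of the 30 genes, against 35.6% of all genes tested. On the right it is highest in 13 of the 30, against 10.2% of all genes.

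Neighbouring pathways were read from lists of further genes and gave no call either. Of other genes of mitochondrial oxidation 15 of 16 were higher in the mean of Riclin (median log2 fold change 0.10), and 10 of 16 either without Riclin replicate 3 or with acinar reads removed. Of other peroxisomal genes 7 of 17 were higher (median -0.05), with 12 of 17 without saline replicate 1. Of other genes of ketone body metabolism 1 of 4 was higher (median -0.04). Pcca, a subunit of the carboxylase for the propionyl-CoA left by odd chains, had 25.9, 38.8 and 40.4 FPKM in Riclin and 23.5, 21.1 and 26.9 FPKM in saline. Riclin replicate 2 overlapped saline, and the log2 fold change was 0.52 (SE 0.18, limma unadjusted p = 0.0236, adjusted p = 0.791). Acox3 and Amacr, enzymes of branched chains with the smallest p of the peroxisomal list, had log2 fold changes of 0.20 and 0.15, with overlapping groups.

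Of other PPAR alpha targets and partners 11 of 17 were higher in the mean of Riclin, with a median log2 fold change of 0.03, and 8 of 17 were with median-of-ratios scaling and 7 of 17 without Riclin replicate 3. The receptor's partner Rxra ran from 16.9 to 17.7 FPKM in Riclin and from 15.0 to 18.0 FPKM in saline, and its target Angptl4, an inhibitor of lipoprotein lipase, from 3.08 to 5.67 FPKM in Riclin and from 3.96 to 5.95 FPKM in saline. Creb3l3, a liver and gut transcription factor of fasting, had 0.446, 1.23 and 0.598 FPKM in Riclin and 2.12, 1.53 and 3.04 FPKM in saline, with all Riclin libraries below all saline libraries (log2 fold change -0.88, SE 0.22, limma unadjusted p = 0.00423, adjusted p = 0.691). Beside it 5 of 7 intestinal absorptive markers were lower in the mean of Riclin. The sums of the list were 226 to 301 FPKM in Riclin and 229 to 373 FPKM in saline. The 2 higher markers were Anpep, without overlap, and Apoa4, with log2 fold changes of 0.64 and 0.29. The intestinal sucrase Sis was not tested and was at 0 in all libraries but saline replicate 4, which held 0.892 FPKM. The part of intestinal cells in the Creb3l3 values was not tested.

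Among 19 genes of uptake, activation and lipolysis 11 were higher in the mean of Riclin (median 0.05). Lpl, the lipoprotein lipase that frees fatty acids from circulating fat, had 72.7, 94.9 and 82.7 FPKM in Riclin and 71.6, 58.4 and 67.9 FPKM in saline, and the lowest Riclin library exceeded the highest saline library by about 1 FPKM (log2 fold change 0.33, SE 0.14, limma unadjusted p = 0.0496, adjusted p = 0.820). Fat cells also make Lpl, and 9 of the 10 adipocyte markers tested were lower in the mean of Riclin. Their sums overlapped, at 137 to 288 FPKM in Riclin and 245 to 310 FPKM in saline. The part of fat cells in the Lpl values was not tested. Among 13 kinases, uncouplers and thioesterases 7 were higher in the mean of Riclin (median 0.08). The thioesterase gene Acot11 had 7.98, 7.27 and 7.38 FPKM in Riclin and 7.09, 6.13 and 4.35 FPKM in saline without overlap (limma adjusted p = 0.820), and the phosphatase gene Pdp2, which opposes Pdk4, a log2 fold change of -0.15.

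Start regions of the pathway were searched for 7 motifs on both strands. RefSeq windows of 300 bases were found for 26 of the 31 genes (28 windows, as Acsl1 and Bdh1 have 2 each), and there is none in the table for Cpt1b, Acaa2, Decr1, Acat1 and Crat. The direct repeat to which PPAR alpha binds with its partner, searched as 2 copies of AGGTCA in a row with any 1 base between them, was in none of the 28 windows, against 0.0396% of 32851 windows of all genes. TCAAGGTCA, the element of estrogen-related receptors, was in none either, against 0.423%. AGGTCA, which both of these contain, was in 4 windows, those of Acadm, Acadvl, Cpt1a and Echs1, or 14.3% against 16.3% of all windows. GGGCGG, the core of sites for Sp factors, was in 19 windows (67.9%), against 35.7% of all. CCAAT was in 11 (39.3%, against 37.4%), and TGACGTCA and TATAAA were in none (1.79% and 13.6% of all windows). The windows were also richer in G and C, with a median of 60.7% against 52.7% over all windows, and held a median of 16.5 CpG pairs against 7. A match describes letters in the window and not a bound site.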

How the data were processed

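Stomach RNA of 6 libraries was sequenced. Per the labels' protocols, RNA came from a TRIzol extraction and the VAHTS Universal V6 kit gave the libraries. The submitters' processing notes name the build mm10 and the tool Bowtie2 without a role or a version. No source used here gives the counting tool, the annotation or the use of strand. The authors deposited FPKM values in a table for all libraries. Whole reads and library totals were recovered from it for all 23550 genes (relative tolerance 1e-09), at 99.7% or more of each total.

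Genes with at least 1 FPKM in at least 3 of 6 libraries were tested, Riclin against saline, on log2(FPKM + 1) by limma 3.58.1 (R 4.3.3) with an intensity trend, no covariate, two-sided tests and Benjamini-Hochberg adjustment over all 11738 genes at 0.05. Steps were checked on simulated data. Ratios were compared by exact permutation of the 6 libraries (Python 3.11.15). Figures were drawn with matplotlib 3.10.9. Gene positions and transcript lengths come from GENCODE M21 on GRCm38, and start regions from RefSeq (GRCm38.p6).

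The members and gene lists were chosen with earlier results of these data known. All 31 genes are named, with Rxra, Angptl4, the genes of the other lists with an unadjusted p under 0.05 (failing any, the 2 with the smallest p), and markers that define a cell type. Esrrg was named after its values were seen. Some genes and 1 gene ratio of the plan are not reported here. Nothing in the labels gives a batch. Alternatives were other pseudocounts, filters, scalings, priors, voom, the replicate number as a block and leaving out each library.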

Additional observations from a re-analysis of the deposited data

How the results depend on the processing

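No gene of the pathway was called under any of the 17 settings, of which 14 were planned and 3 chosen after seeing the data, and the smallest adjusted limma p was 0.538 (Ppargc1a, acinar reads removed). 16 of the 30 genes kept their direction throughout, 12 higher and 4 lower in Riclin. Among all genes, 0 became 2 calls with a robust prior, and 0 to 1 when libraries were left out, the 1 call coming without saline replicate 2; unadjusted p under 0.05 counted 1224 genes with no filter and 376 at a minimum of 5 FPKM. The number of pathway genes higher in Riclin ran from 14 to 24 when libraries were left out. The cause of the changes below was not tested.

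With median-of-ratios scaling the log2 fold change was -0.0107 for Slc25a20, -0.003 for Hadhb and -0.0268 for Etfdh, and with upper-quartile scaling -0.0159 for Etfdh. With acinar reads removed it was -0.036 for Slc25a20, -0.0284 for Hadhb, -0.0222 for Eci2, -0.0526 for Etfdh and -0.0071 for Acot2. Numbers 2 and 4 are shared by the groups. Deviations correlated by 0.22 for the pair numbered 2 and 0.01 for the pair numbered 4. Libraries with unlike numbers ran from -0.44 to 0.39. With so few shared numbers these values cannot decide whether the numbers pair the libraries. With the replicate block, and without the libraries lowest in acinar transcripts, which leaves the same libraries, the fold change was -0.15 for Slc25a20, 0.0298 for Acadm, -0.0471 for Hadhb and -0.0124 for Acot2, and 0 genes were called (648 at an unadjusted p under 0.05 with the block).

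Leaving out each library gave ranges of -0.0308 to 0.16 for Cpt1a, -0.16 to 0.0867 for Cpt2, -0.14 to 0.13 for Slc25a20, -0.16 to 0.15 for Acadm, -0.0051 to 0.21 for Acads, -0.034 to 0.16 for Hadha, -0.0862 to 0.13 for Hadhb, -0.0918 to 0.16 for Eci2, -0.0063 to 0.16 for Etfa, -0.20 to 0.0058 for Etfb, -0.0883 to 0.11 for Etfdh, -0.19 to 0.13 for Pdk4, -0.23 to 0.0045 for Ucp2, -0.0948 to 0.18 for Acot2 and -0.34 to 0.0159 for Angptl4.

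Other mitochondrial genes higher in Riclin numbered 10 of 16 with acinar reads removed and 10 to 16 with libraries left out. Other peroxisomal genes higher in Riclin numbered 4 of 11 at a minimum of 5 FPKM (7 of 17 as reported) and 5 to 12 with libraries left out. Ketogenesis genes numbered 2 of 6 with no filter (1 of 4 as reported), 3 of 4 with the replicate block, 3 without the libraries lowest in acinar transcripts and 1 to 2 with libraries left out. PPAR alpha targets numbered 6 of 9 at a minimum of 5 FPKM (11 of 17 as reported), 6 of 17 with acinar reads removed and 7 to 13 with libraries left out. Depth limits little here for the 25 tested genes of the pathway with at least 1000 reads in every library. The fewest reads behind a tested gene of the pathway were 151. The spread of 3 libraries a group sets the intervals.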
